A study of Mus musculus with 6 samples.

Results

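Collagen chain genes were taken as every listed gene whose symbol reads Col, a number, a and a number, such as Col1a1, which gave 43 of the 23284 genes in the table of each library. The libraries were made from whole mouse hearts of the C57BL/6 strain at E13.5 (embryonic day), by sequencing of polyadenylated RNA. The Tfam KO group (3 libraries) was Tfam fl/fl; Nkx2.5 IRES-Cre/+, with both copies of Tfam floxed, and the Control group (3 libraries) was Tfam fl/+; Nkx2.5 IRES-Cre/+, with 1 floxed copy. Cre sat in the Nkx2.5 locus in both groups, and this locus works in cardiac progenitors and their offspring, so other cells in the heart keep Tfam. Each library was a pool of 5 hearts. Tfam encodes a protein that packages and transcribes mitochondrial DNA.

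Collagens are secreted or membrane-bound proteins whose chains, rich in glycine and proline, wind into helical trimers. Fibrillar collagens (types I, III and V in most connective tissue, types II and XI in cartilage) form the ropes of the interstitial matrix. Type IV collagen builds the sheet of basement membranes, type VI forms beaded filaments, and the FACIT collagens sit on the surface of fibrils. Multiplexins (types XV and XVIII) lie at basement membranes, and transmembrane collagens span the cell membrane. In the embryonic heart, collagen is made mainly by mesenchyme of the valves, by epicardium and its offspring, by endocardium and by smooth muscle, and myocytes contribute to basement membranes. In whole hearts, fewer cells of a type and less RNA per cell cannot be told apart.

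The libraries held 12370092 to 18078620 reads, recovered from the steps of the FPKM values. FPKM counts reads per kilobase of transcript, scaled to the library's depth. Overall scale differed between libraries: on the deposited values the median tested gene was 0.28 log2 units higher in Tfam KO hearts. The ribosomal precursor Rn45s took 25.4, 31.2 and 14.95% of reads in Tfam KO and 32.5, 31.6 and 27.8% in Control libraries. FPKM values were therefore divided by median-of-ratios size factors, which were 1.17, 0.925 and 1.33 in Tfam KO replicates 1, 2 and 3 and 0.815, 0.867 and 1.01 in Control replicates 1, 2 and 3. The result is called scaled FPKM, with a median shift of 0.00 over all genes tested. Tfam itself was at 3.39, 5.15 and 4.67 scaled FPKM in the Tfam KO libraries and 5.69, 6.40 and 6.58 in the Control libraries, and all 3 Tfam KO values lay below the Control values (log2 difference -0.43, SE 0.15, limma adjusted p = 0.139). A value for the whole gene does not show whether the floxed part is present. Heart muscle genes were high in every library: Tnnt2, cardiac troponin T, was at 1552, 3184 and 1879 scaled FPKM in the Tfam KO libraries and 3049, 3239.8 and 2404 in the Control libraries.

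Of the 43 collagen genes, 26 averaged at least 1 scaled FPKM over the libraries and were tested. The 26 spanned 637 to 45324 recovered reads over the 6 libraries together. Type III, I and IV chains led in level per length, in the order Col3a1, Col1a1, Col1a2, Col4a1 and Col4a2. Those 5 genes held 68.5, 70.8 and 69.8% of the summed scaled FPKM of all collagen genes in the Tfam KO libraries and 65.9, 65.6 and 65.6% in the Control libraries. The sum over all 43 genes was 454, 495 and 443 scaled FPKM in Tfam KO and 616, 385 and 525 in Control libraries. The Tfam KO sums lay inside the range of the Control sums, whose replicate 2 was lowest. Control replicate 2 was the lowest of the 3 controls in 24 of the 26 tested collagen genes (92.3%), against 35.1% of all genes tested.

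**Figure D1:**
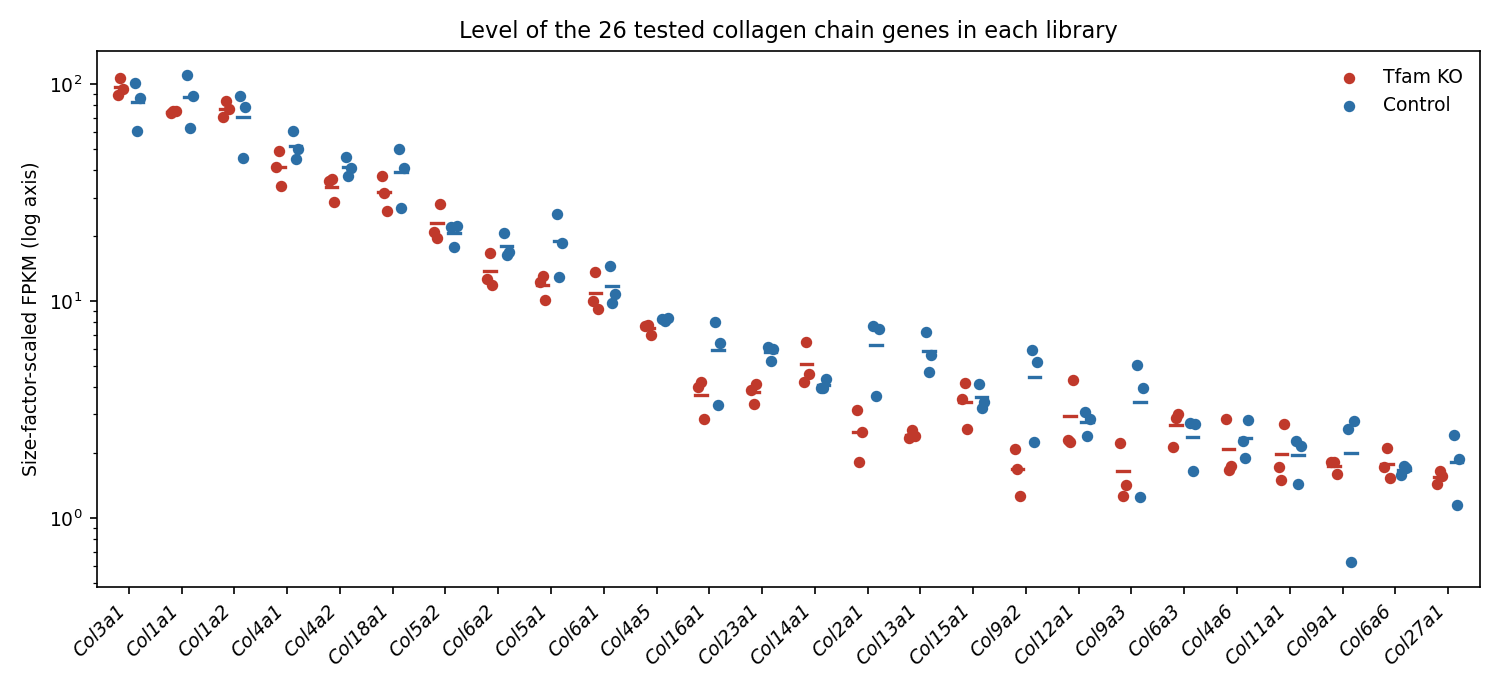
Scaled FPKM (log axis) of the 26 tested collagen genes, ordered by their mean over all libraries. Points are libraries, short lines are group means, and Tfam KO stands left of Control for each gene. Levels run from about 1.68 (Col27a1) to 89.8 scaled FPKM (Col3a1), and the groups overlap in 20 of the 26 genes.

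Differences were tested with limma on log2(scaled FPKM + 1) over all 10795 genes with a mean of at least 1, with p-values adjusted over all of them and a threshold of 0.05. Of the 26 collagen genes, 18 had a negative and 8 a positive log2 difference, and the few that passed were lower in Tfam KO hearts. Of the 26, 0 passed as higher, against a background of 1.96% of all genes tested. Lower calls numbered 3 (Col2a1, Col13a1 and Col23a1), against a background of 2.6%. The corresponding unadjusted counts at p under 0.05 were 0 and 7. By limma-voom, run on recovered reads, 0 were higher and 4 lower (those 3 and Col9a2), with backgrounds of 2.55% and 4.3%. On the deposited scale 0 were called higher and 3 lower (Col2a1, Col13a1 and Col9a2), with backgrounds of 6.21% and 1.16% and unadjusted counts of 4 and 3. Col2a1 and Col13a1 passed on both scales, which 0.956% of all genes did as lower and 1.97% as higher, and only genes past the threshold on both are said to have risen or fallen. In 6 of the 26, all Tfam KO values lay below all Control values, and in 0 did they lie above, against 12.3% and 11.8% of all genes. The median log2 difference of the 26 was -0.12, beside 0.00 for all genes tested. With Control replicate 2 left out, the lower calls numbered 6 (Col2a1, Col13a1, Col5a1, Col16a1, Col9a2 and Col9a3), and without Control replicate 1, Control replicate 3, Tfam KO replicate 2 or Tfam KO replicate 3 Col13a1 was the 1 left.

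**Figure D2:**
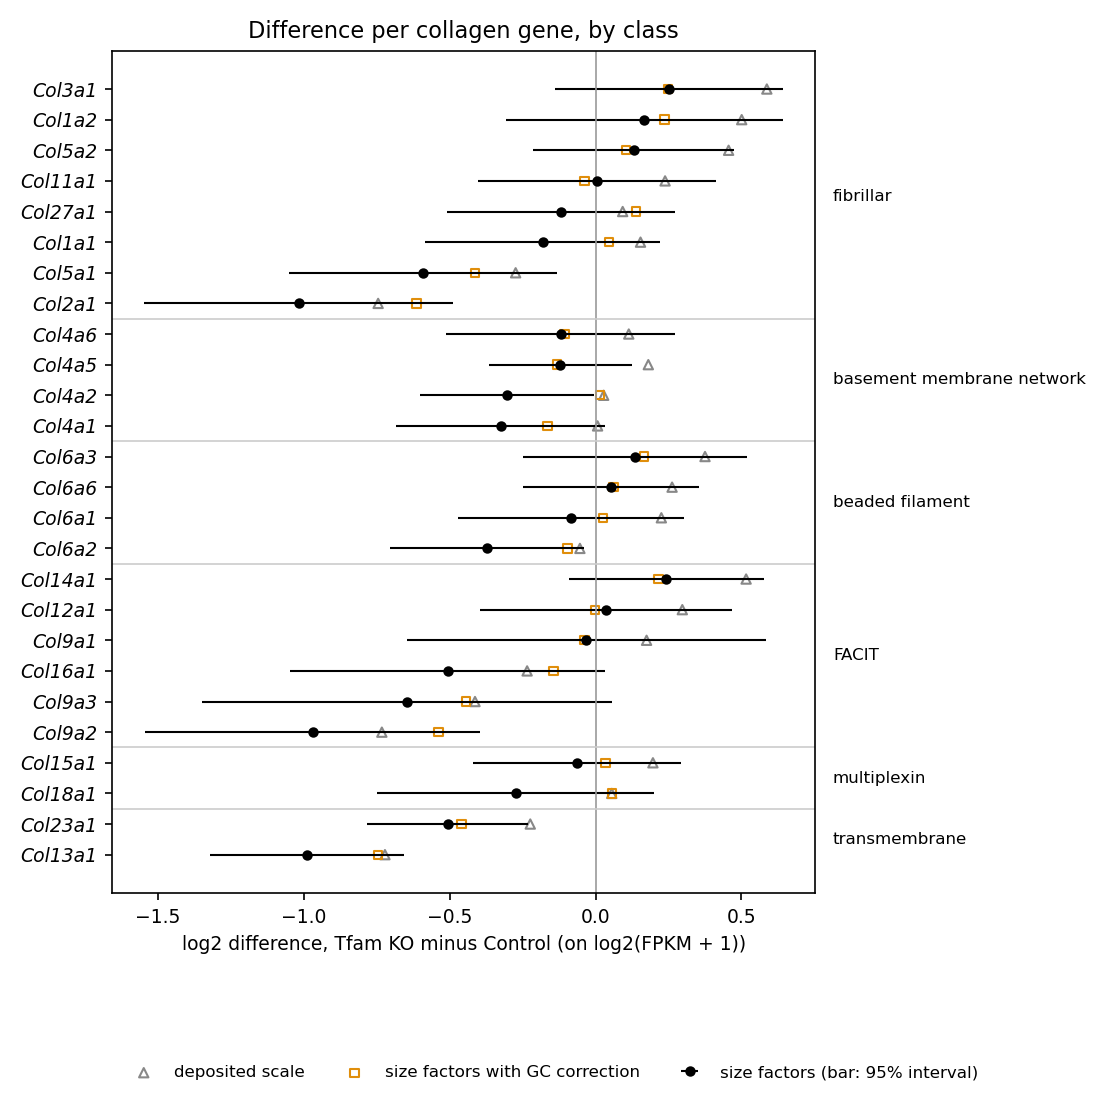
Log2 difference of each tested collagen gene, Tfam KO minus Control, grouped by class. Black points with 95% intervals are the values with size factors, triangles the deposited scale and squares the size-factor values corrected for GC content. Col13a1 (-0.99) and Col2a1 (-1.02) lie farthest to the left, and the intervals of Col1a1, Col1a2 and Col3a1 include 0.

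Sequence is shown for the start regions of 5 members with a matched RefSeq entry, which Col2a1 and Col1a1 lacked. The 5 are the transmembrane genes Col13a1 and Col23a1 and the type IX gene Col9a2, which were lower in Tfam KO hearts on at least 1 scale, and the abundant fibril genes Col3a1 and Col1a2, which did not pass. Each is the 250 bases before the RefSeq start on GRCm38.p6, 5′ to 3′ on the gene's strand, at chr10:61979109-61979358 (minus strand), chr11:51289670-51289919 (plus strand), chr4:121039316-121039565 (plus strand), chr1:45311288-45311537 (plus strand) and chr6:4505368-4505617 (plus strand). Capitals mark 3 short promoter motifs on either strand, namely the CCAAT box with the letters CCAAT, the TATA box with TATAAA, and the GC box with GGGCGG.
Col13a1: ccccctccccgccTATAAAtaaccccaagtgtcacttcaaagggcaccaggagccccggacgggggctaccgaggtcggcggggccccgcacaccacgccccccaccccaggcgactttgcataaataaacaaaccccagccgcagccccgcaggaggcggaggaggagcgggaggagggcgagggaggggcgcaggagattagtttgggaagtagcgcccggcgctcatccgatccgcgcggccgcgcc
Col23a1: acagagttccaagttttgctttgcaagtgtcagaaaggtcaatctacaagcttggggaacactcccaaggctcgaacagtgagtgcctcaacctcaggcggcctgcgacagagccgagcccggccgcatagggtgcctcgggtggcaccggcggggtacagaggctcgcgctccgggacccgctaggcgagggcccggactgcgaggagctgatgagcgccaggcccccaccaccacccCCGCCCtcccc
Col9a2: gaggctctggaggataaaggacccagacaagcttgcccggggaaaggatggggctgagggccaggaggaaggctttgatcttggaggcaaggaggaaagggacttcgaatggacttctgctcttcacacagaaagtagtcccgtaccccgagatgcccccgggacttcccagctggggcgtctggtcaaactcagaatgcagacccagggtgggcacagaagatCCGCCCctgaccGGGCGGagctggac
Col3a1: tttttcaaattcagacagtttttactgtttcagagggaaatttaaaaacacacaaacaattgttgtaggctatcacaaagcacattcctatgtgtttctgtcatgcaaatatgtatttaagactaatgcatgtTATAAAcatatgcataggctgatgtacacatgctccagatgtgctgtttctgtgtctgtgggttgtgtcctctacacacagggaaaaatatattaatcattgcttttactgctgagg
Col1a2: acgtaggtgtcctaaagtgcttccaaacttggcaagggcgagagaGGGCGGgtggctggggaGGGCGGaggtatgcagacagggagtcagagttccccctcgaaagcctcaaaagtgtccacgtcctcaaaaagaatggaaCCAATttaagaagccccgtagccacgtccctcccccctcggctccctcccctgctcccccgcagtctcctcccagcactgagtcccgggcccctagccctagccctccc

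Of the 5 regions, Col13a1 and Col3a1 held a TATAAA, Col1a2 held a CCAAT, and Col1a2, Col9a2 and Col23a1 held GGGCGG. The TATAAA letters began 237 bases before the start in Col13a1 and 117 bases before it in Col3a1. RefSeq entries were matched for 35 of the 43 collagen genes. GGGCGG stood in 20 of the 35 (57.1%), against 32.7% of the 27025 genes with such a region. CCAAT stood in 11 (31.4%, all genes 34.2%) and TATAAA in 5 (14.3%, all genes 12.9%). These matches are letters in a window and say nothing of binding. Col4a1 and Col4a2 run in opposite directions on mouse chromosome 8, and by the RefSeq starts their transcripts share 22 bases.

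The interstitial fibril chains were the most abundant collagens and did not pass the test. Col3a1, the type III chain of extensible tissues, was at 89.2, 106 and 94.9 scaled FPKM in the Tfam KO libraries and 101, 61.1 and 86.1 in the Control libraries. The Tfam KO values lay within the Control range except for replicate 2, the highest of all 6 (log2 difference 0.25, SE 0.18, limma adjusted p = 0.492, 95% interval -0.14 to 0.64). Col1a1, which supplies most of type I collagen, was at 73.9, 74.9 and 75.3 scaled FPKM in the Tfam KO libraries and 110.1, 62.7 and 88.3 in the Control libraries. Its Tfam KO libraries were nearly equal, inside a wide Control range (log2 difference -0.18, SE 0.18, limma adjusted p = 0.654, interval -0.58 to 0.22). Its partner Col1a2 was at 70.6, 83.2 and 77.0 scaled FPKM in the Tfam KO libraries and 88.4, 45.8 and 78.6 in the Control libraries, again inside the Control range (log2 difference 0.17, SE 0.21, limma adjusted p = 0.741, interval -0.31 to 0.64). Each of these intervals includes 0 and is wide, so these values do not show that the groups were alike.

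Type V collagen, which starts and thins type I fibrils, had 2 tested chains, of which neither passed. Col5a1 was at 12.3, 13.1 and 10.1 scaled FPKM in the Tfam KO libraries and 25.3, 12.9 and 18.5 in the Control libraries, and Control replicate 2 lay inside the Tfam KO range (log2 difference -0.59, SE 0.21, limma adjusted p = 0.148). Without Control replicate 2, Col5a1 passed as lower (log2 difference -0.82, limma adjusted p = 0.0232). Col5a2 was at 20.8, 19.6 and 28.1 scaled FPKM in the Tfam KO libraries and 21.9, 17.7 and 22.3 in the Control libraries, with Tfam KO replicate 3 the highest (log2 difference 0.13, SE 0.15, limma adjusted p = 0.716). Col11a1, a partner of type II fibrils, and Col27a1, a chain of cartilage, had log2 differences of 0.00 and -0.12 and did not pass. Of the 8 fibrillar genes tested, 1 was called lower and 0 higher, with a median log2 difference of -0.06. Summed over all 11 fibrillar genes, levels were 273, 303 and 292 scaled FPKM in Tfam KO and 359.6, 207 and 306 in Control libraries.

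Col2a1, the main fibrillar collagen of cartilage, which is also made in embryonic valve mesenchyme, fell in Tfam KO hearts. Its levels were 3.16, 1.81 and 2.49 scaled FPKM in the Tfam KO libraries and 7.67, 3.65 and 7.41 in the Control libraries, from 238, 119 and 284 reads in Tfam KO and 447, 201 and 692 in Control libraries. All 3 Tfam KO values lay below the Control values, with Control replicate 2 well under the other controls (log2 difference -1.02, SE 0.24, limma adjusted p = 0.0399, and -0.75 with adjusted p = 0.0190 on the deposited scale). The call was lost without Control replicate 1, Control replicate 3, Tfam KO replicate 2 or Tfam KO replicate 3 (limma adjusted p = 0.113, 0.151, 0.137 and 0.101), with no filter on low values (adjusted p = 0.134), and after a correction for GC content (log2 difference -0.61, adjusted p = 0.0857).

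Type IX collagen coats type II fibrils, and its 3 chains differed in how far the groups lay apart. Col9a2 was at 2.08, 1.68 and 1.26 scaled FPKM in the Tfam KO libraries and 5.97, 2.24 and 5.22 in the Control libraries, without overlap between the groups. By limma it passed on the deposited scale and not with size factors (log2 difference -0.97, SE 0.26, limma adjusted p = 0.0644, deposited -0.73 with adjusted p = 0.0183). Col9a2 was also called lower by limma-voom on reads (adjusted p = 0.0144). It did not pass after GC correction (log2 difference -0.54, limma adjusted p = 0.0948). Col9a3 was at 2.23, 1.26 and 1.42 scaled FPKM in the Tfam KO libraries and 5.08, 1.25 and 3.98 in the Control libraries, where Control replicate 2 lay just below all Tfam KO values (log2 difference -0.65, SE 0.32, limma adjusted p = 0.298). Col9a1 was at 1.81, 1.81 and 1.6 scaled FPKM in the Tfam KO libraries and 2.56, 0.624 and 2.78 in the Control libraries, with Control replicate 2 again the lowest of all 6 (log2 difference -0.03, SE 0.28, limma adjusted p = 0.964). Without Control replicate 2, Col9a2 and Col9a3 passed as lower (log2 difference -1.32 and -1.08, limma adjusted p = 0.00240 and 0.0104), and Col9a1 did not. Of the defining cartilage genes, Matn1, Matn3, Comp, Ucma and Acan stayed under 1 scaled FPKM in every library. The 6 listed genes summed to 3.89 to 4.92 in Tfam KO and 2.46 to 6.00 in Control libraries, nearly all of it Hapln1, which the heart also makes. Sox9, the regulator of Col2a1 in cartilage and valve mesenchyme, was at 9.91, 9.36 and 12.9 scaled FPKM in the Tfam KO libraries and 13.7, 6.30 and 13.6 in the Control libraries, with overlapping groups (log2 difference 0.00, SE 0.25, limma adjusted p = 0.998).

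**Figure D3:**
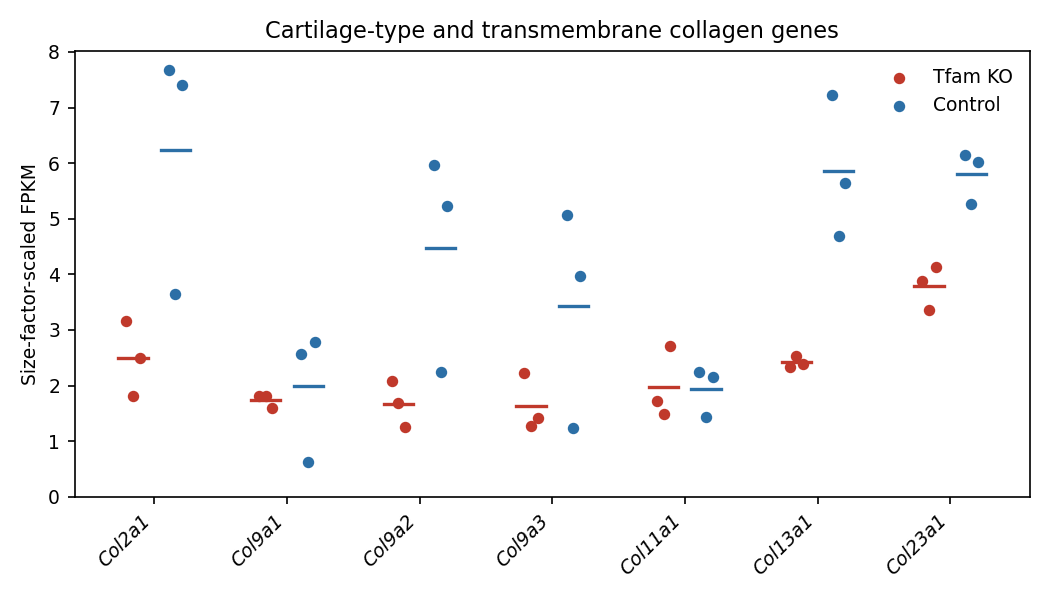
Scaled FPKM of the cartilage-type collagen genes and of the transmembrane genes Col13a1 and Col23a1, with Tfam KO left of Control, points for libraries and lines for group means. All Tfam KO points lie below all Control points for Col2a1, Col9a2, Col13a1 and Col23a1, while Control replicate 2 (0.624 for Col9a1) lies at or under the Tfam KO points for Col9a1 and Col9a3.

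Of the transmembrane collagens, 2 of 2 tested were called lower with size factors and 1 on the deposited scale. The shares of all genes called lower were 2.6% and 1.16%. With 2 tested genes, this count does not describe the class. Col13a1, found at sites of cell adhesion and in muscle at the nerve junction, fell to 2.33, 2.54 and 2.39 scaled FPKM in Tfam KO libraries, against 7.23, 4.70 and 5.65 in Control libraries. As deposited, the values were 2.72, 2.35 and 3.18 FPKM in Tfam KO and 5.89, 4.07 and 5.68 FPKM in Control libraries, from 99, 94 and 154 reads in Tfam KO and 238, 146 and 298 in Control libraries. The Tfam KO libraries lay close together and below every control (log2 difference -0.99, SE 0.15, limma adjusted p = 0.00411, interval -1.32 to -0.66, and -0.72 with adjusted p = 0.0244 on the deposited scale). Col13a1 was the collagen gene that passed under all 15 alternative settings, with adjusted p between 0.000700 and 0.0278. Col23a1, another membrane-spanning chain, was at 3.89, 3.36 and 4.13 scaled FPKM in the Tfam KO libraries and 6.14, 5.27 and 6.01 in the Control libraries, without overlap (log2 difference -0.51, SE 0.12, limma adjusted p = 0.0480). It did not pass on the deposited scale (log2 difference -0.22, adjusted p = 0.493), nor when any 1 of the 6 libraries was left out (adjusted p = 0.0513 to 0.185). It was also lost with upper-quartile scaling, with no trend and with no filter on low values (adjusted p = 0.0530, 0.0509 and 0.105), and so passed in 5 of 15 alternatives. Col25a1, a chain known from neurons, was under the filter at 0.395, 0.443 and 0.782 scaled FPKM in the Tfam KO libraries and 0.688, 0.553 and 0.726 in the Control libraries. Col17a1 of hemidesmosomes had 22 reads in all.

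Basement membrane collagen showed no call in either direction. Col4a1 was at 41.5, 49.4 and 33.8 scaled FPKM in the Tfam KO libraries and 60.8, 45.1 and 50.4 in the Control libraries, with overlapping groups (log2 difference -0.32, SE 0.16, limma adjusted p = 0.306). Col4a2, the chain that joins Col4a1 in the common trimer, was at 35.8, 36.5 and 28.6 scaled FPKM in the Tfam KO libraries and 46.1, 37.8 and 41.0 in the Control libraries, and its Tfam KO values all lay below the Control values (log2 difference -0.30, SE 0.13, limma adjusted p = 0.249). On the deposited scale their log2 differences were 0.01 and 0.03, below the median shift of 0.28 on that scale. Col4a5 was at 7.69, 7.76 and 6.99 scaled FPKM in the Tfam KO libraries and 8.24, 8.06 and 8.33 in the Control libraries, again without overlap (log2 difference -0.12, SE 0.11, limma adjusted p = 0.617). Col4a6 was at 2.86, 1.67 and 1.73 scaled FPKM in the Tfam KO libraries and 2.27, 1.89 and 2.82 in the Control libraries (log2 difference -0.12, SE 0.18, limma adjusted p = 0.777). The median over the 4 tested genes was -0.21. Reads near the starts of Col4a1 and Col4a2 cannot be told apart where the transcripts overlap, since the strand setting was not given.

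The multiplexins Col18a1, from which endostatin is cut, and Col15a1 overlapped between groups. Col18a1 was at 37.6, 31.4 and 26.1 scaled FPKM in the Tfam KO libraries and 50.01, 26.8 and 41.2 in the Control libraries (log2 difference -0.27, SE 0.21, limma adjusted p = 0.546). Col15a1 was at 3.55, 4.19 and 2.58 scaled FPKM in the Tfam KO libraries and 4.16, 3.23 and 3.42 in the Control libraries (log2 difference -0.06, SE 0.16, limma adjusted p = 0.878). Control replicate 1 was the highest control for both, and neither gene was called by limma with size factors, on the deposited scale or by limma-voom on reads.

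Type VI collagen, whose beaded filaments link cells to the interstitial matrix, was also without calls. Col6a2 was at 12.7, 16.6 and 11.8 scaled FPKM in the Tfam KO libraries and 20.7, 16.3 and 16.8 in the Control libraries, with Tfam KO replicate 2 inside the Control range (log2 difference -0.37, SE 0.15, limma adjusted p = 0.207). Col6a1 was at 10.05, 13.54 and 9.24 scaled FPKM in the Tfam KO libraries and 14.5, 9.76 and 10.7 in the Control libraries (log2 difference -0.08, SE 0.17, limma adjusted p = 0.844). Col6a3, the longest chain of the trimer, was at 2.12, 2.89 and 3.03 scaled FPKM in the Tfam KO libraries and 2.75, 1.65 and 2.71 in the Control libraries (log2 difference 0.13, SE 0.17, limma adjusted p = 0.742). Groups overlapped for all of them and for Col6a6, an alternative to Col6a3, which was at 1.78 ± 0.287 scaled FPKM in Tfam KO and 1.67 ± 0.0841 in Control hearts (SD, n = 3 each).

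FACIT chains of type I fibrils and Col16a1 did not pass. Col14a1 was at 4.23, 6.48 and 4.62 scaled FPKM in the Tfam KO libraries and 3.96, 3.98 and 4.37 in the Control libraries, with Tfam KO replicate 2 highest (log2 difference 0.24, SE 0.15, limma adjusted p = 0.427). Col12a1 was at 2.30, 2.25 and 4.33 scaled FPKM in the Tfam KO libraries and 3.07, 2.38 and 2.85 in the Control libraries, where Tfam KO replicate 3 stood above the other 5 (log2 difference 0.04, SE 0.19, limma adjusted p = 0.941). Col16a1 was at 4.01, 4.22 and 2.87 scaled FPKM in the Tfam KO libraries and 8.02, 3.33 and 6.43 in the Control libraries, and Control replicate 2 lay inside the Tfam KO range (log2 difference -0.51, SE 0.24, limma adjusted p = 0.290). Without that library Col16a1 passed as lower (log2 difference -0.81, limma adjusted p = 0.0267).

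The 17 collagen genes under the filter had 2 to 414 recovered reads over all libraries and received no test. Col8a2 and Col8a1, short chains of sheet-like networks, were at 0.629, 1.12 and 1.01 scaled FPKM in the Tfam KO libraries and 1.38, 0.409 and 0.584 in the Control libraries and at 0.387, 0.827 and 0.713 scaled FPKM in the Tfam KO libraries and 0.465, 0.383 and 0.634 in the Control libraries, with overlapping groups for each. The cartilage and bone chain Col11a2 had 11, 7 and 9 reads in Tfam KO libraries and 23, 14 and 17 in Control libraries, and Col7a1 of anchoring fibrils had 23, 12 and 20 in Tfam KO and 21, 32 and 34 in Control libraries. In scaled FPKM both genes were lower in all 3 Tfam KO libraries than in any control. Col24a1 had 71 reads in the Tfam KO and 97 in the Control libraries. Col4a3 and Col4a4, the chains of mature kidney basement membrane, had 56 and 52 reads in all. Col22a1, Col20a1, Col5a3, Col17a1 and Col19a1 had between 16 and 26. Col28a1, Col10a1, Col6a5 and Col6a4 had 0 reads in the Tfam KO libraries and 4, 3, 7 and 2 in the Control libraries, too few for a fold. A count of 0 allows up to 3 reads in a library by counting error.

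Ratios between chains of the same trimer or fibril do not depend on a library's scale, and 10 such ratios were compared. No share over other gene pairs was computed to set beside them. In 7 of them the groups did not overlap, 4 being higher and 3 lower in Tfam KO hearts. The 7 are not separate results, since some share a chain. Col1a1 is the second chain for both Col3a1 and Col1a2, and Col9a1 for both Col9a2 and Col9a3. Col9a1 had 26 reads in Control replicate 2. Each of the 7 had an exact permutation p of 0.1 (two-sided, over libraries), the smallest that 3 against 3 can give, and 0.143 adjusted over the 10 ratios. Col3a1 to Col1a1 was 1.21, 1.42 and 1.26 in the Tfam KO libraries and 0.917, 0.973 and 0.975 in the Control libraries (log2 difference 0.44). Col1a2 to Col1a1, the chains of type I collagen, was 0.956, 1.11 and 1.02 in the Tfam KO libraries and 0.803, 0.729 and 0.890 in the Control libraries (log2 difference 0.35). The Tfam KO ratios were the higher ones in both, although no chain of the pair passed by itself.

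Col5a2 to Col5a1 was 1.69, 1.5 and 2.77 in the Tfam KO libraries and 0.866, 1.37 and 1.20 in the Control libraries, higher in Tfam KO hearts with replicate 3 farthest out (log2 difference 0.77). Col11a1 to Col2a1, chains that meet in type XI trimers, was 0.543, 0.824 and 1.09 in the Tfam KO libraries and 0.294, 0.393 and 0.291 in the Control libraries (log2 difference 1.29). Col9a2 to Col9a1 was 1.15, 0.928 and 0.790 in the Tfam KO libraries and 2.33, 3.59 and 1.88 in the Control libraries (log2 difference -1.40). This ratio and that of Col9a3 to Col9a1 (log2 difference -0.96) were lower in every Tfam KO library, as was Col6a2 to Col6a1, at 1.26, 1.22 and 1.28 in the Tfam KO libraries and 1.42, 1.67 and 1.57 in the Control libraries (log2 difference -0.30). Type IV ratios overlapped between groups, which in 3 against 3 libraries does not show that they were alike. Col4a2 to Col4a1 was 0.863, 0.740 and 0.846 in the Tfam KO libraries and 0.759, 0.837 and 0.813 in the Control libraries, with exact permutation p = 0.7, and Col4a6 to Col4a5 and Col6a3 to Col6a1 overlapped between groups (exact permutation p = 0.9 and 0.4).

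**Figure D4:**
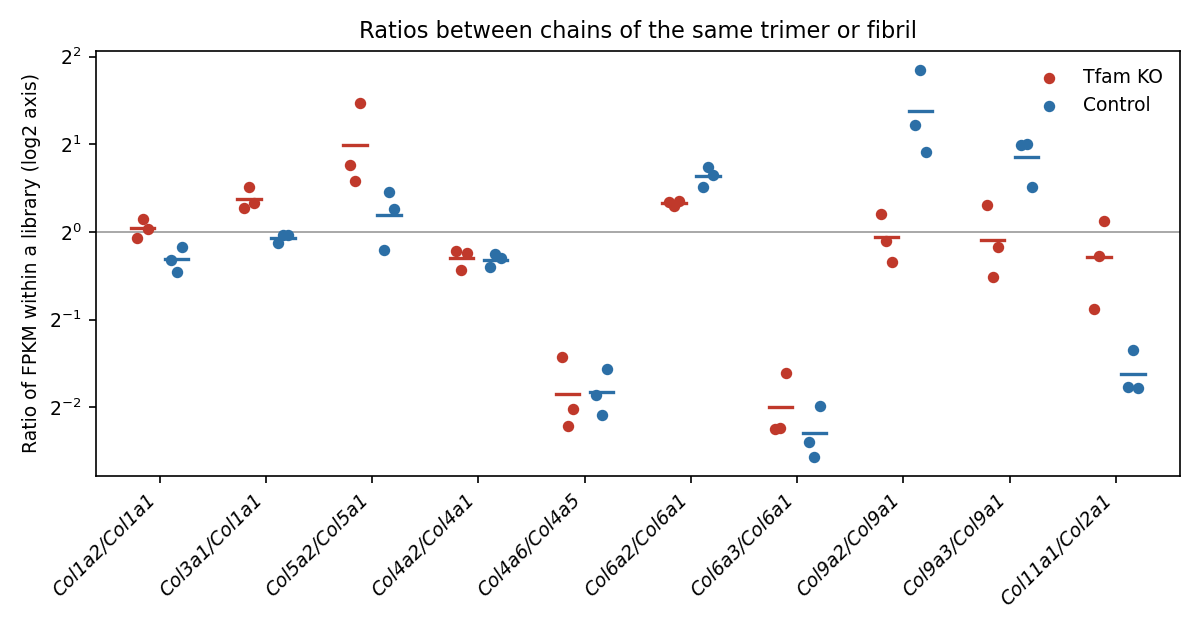
Ratio of the FPKM of the first chain to that of the second within each library (log2 axis), with Tfam KO left of Control, points for libraries and lines for group means. The groups separate in 7 of the 10 ratios, such as Col3a1/Col1a1 (mean 1.30 in Tfam KO and 0.955 in Control), and overlap for Col4a2/Col4a1, Col4a6/Col4a5 and Col6a3/Col6a1. Some ratios share a chain and are not separate results.

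The difference of a collagen gene moved with the GC content of its transcript, which was taken from GENCODE transcripts. Across the 26 genes, Spearman's rho between GC content and log2 difference was -0.75, as a description over genes that share the same 6 libraries. Across the 10708 tested genes with a GC value it was -0.30. After the GC correction (a curve taken off each library) it was -0.40 for the collagen genes and 0.02 for all genes. The median GC content was 56.5% for the 26 collagen genes and 50.2% for all genes. Above 60% GC lay Col2a1, Col9a2, Col16a1, Col18a1 and Col4a2, with a median log2 difference of -0.51, while all 499 genes in that range had a median of -0.40. Between 55% and 60%, where most collagen genes of any bin lay (11), their median was -0.32, against -0.11 for all 2097 genes there. Between 50% and 55% lay 6, with a median of 0.01 against 0.01 for all genes there. Between 45% and 50% lay Col11a1, Col12a1, Col5a2 and Col14a1, with a median of 0.08 against 0.05 for all genes there. The libraries differed in this respect within groups too: genes above 60% GC deviated from their mean by a median of -0.05, -0.14 and -0.45 on the log2 scale in Tfam KO replicates 1, 2 and 3 and 0.41, 0.00 and 0.21 in Control replicates 1, 2 and 3.

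With a GC curve taken off each library, an alternative chosen after the data were seen, 2 collagen genes were called lower, Col13a1 (log2 difference -0.75, limma adjusted p = 0.00570) and Col23a1 (-0.46, adjusted p = 0.0440), and 0 higher. The backgrounds were 3.3% lower and 3.6% higher. The median of the 26 became -0.02. Differences of Col4a2, Col18a1 and Col1a1 went to 0.02, 0.06 and 0.05. In each of the 7 ratios that separated the groups, the chain with the lower GC content was the one relatively higher in Tfam KO hearts. For these the corrected log2 differences kept their sign and were smaller, at 0.20 for Col3a1 to Col1a1, 0.19 for Col1a2 to Col1a1, 0.52 for Col5a2 to Col5a1, 0.58 for Col11a1 to Col2a1, -0.12 for Col6a2 to Col6a1, -0.50 for Col9a2 to Col9a1 and -0.41 for Col9a3 to Col9a1. Of the ratios that overlapped, Col4a2 to Col4a1 had a log2 difference of 0.02 before the correction and 0.18 after it, close to the corrected values of Col3a1 to Col1a1 and Col1a2 to Col1a1. Col6a3 to Col6a1 had 0.29 before and 0.14 after, and Col4a6 to Col4a5 -0.05 and 0.03.

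**Figure D5:**
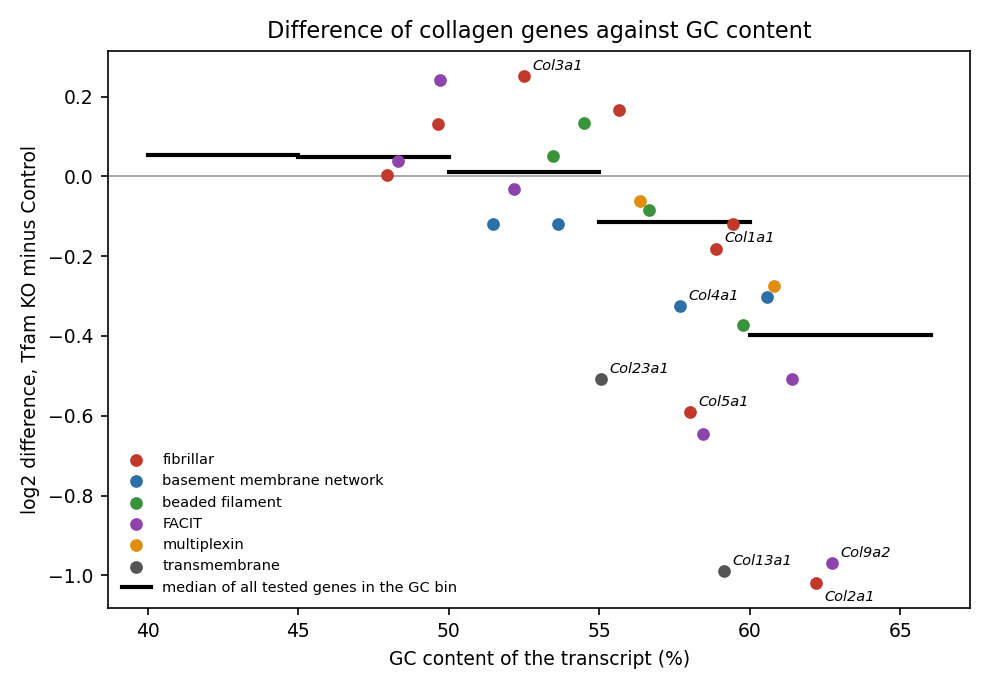
Log2 difference of each tested collagen gene (Tfam KO minus Control) against the GC content of its transcript in percent, coloured by class. Black lines are medians of all tested genes in GC bins, the outer bins being drawn only over part of their width. The medians of all genes go down, from 0.05 at 45% to 50% to -0.40 above 60%, and the collagen genes go down too, with Col13a1, Col2a1 and Col9a2 below the lines (Spearman's rho -0.75, and -0.40 after GC correction).

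Most genes that make and process collagen did not pass the test. Of 37 such genes listed, 28 were tested, with 1 higher and 0 lower (deposited scale 2 and 0) and a median log2 difference of 0.02. For this and the lists below, the shares over all genes were 1.96% higher and 2.6% lower with size factors. On the deposited scale they were 6.21% higher and 1.16% lower. The other gene on the deposited scale was Ctage5, which helps collagen leave the endoplasmic reticulum (log2 difference 0.51, limma adjusted p = 0.0590 with size factors). Leprel1, a prolyl 3-hydroxylase of basement membrane collagen, rose to 13.6, 12.8 and 17.0 scaled FPKM in Tfam KO libraries, against 7.60, 10.3 and 8.41 in Control libraries (log2 difference 0.66, SE 0.15, limma adjusted p = 0.0299). The Leprel1 call was lost when any 1 library other than Control replicate 2 was left out, and with no filter on low values (highest adjusted p = 0.120). Serpinh1, the collagen chaperone Hsp47, was at 135, 120.4 and 119 scaled FPKM in the Tfam KO libraries and 161, 96.5 and 134 in the Control libraries, with overlapping groups (log2 difference -0.03, SE 0.18, limma adjusted p = 0.940). P4ha1, a prolyl 4-hydroxylase chain, and Lox, which crosslinks collagen, had log2 differences of 0.04 and 0.07 and did not pass.

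Among 6 tested collagen receptors, Ddr2, a receptor tyrosine kinase for fibrillar collagen, was the 1 called, with size factors and as deposited. It rose to 9.21, 8.62 and 10.5 scaled FPKM in Tfam KO libraries, against 3.04, 2.03 and 2.57 in Control libraries. The groups were far apart (log2 difference 1.56, SE 0.14, limma adjusted p = 0.000163, and 1.84 on the deposited scale), and the gene passed under all 15 alternative settings. Ddr1, its relative, which also binds type IV collagen, was at 10.4, 9.52 and 6.61 scaled FPKM in the Tfam KO libraries and 17.1, 11.9 and 16.2 in the Control libraries, lower in every Tfam KO library without passing (log2 difference -0.71, SE 0.18, limma adjusted p = 0.0541, and 0.0370 as adjusted p after GC correction). The integrin Itga1, a receptor for type IV collagen, was higher in every Tfam KO library at 9.26, 9.55 and 10.6 scaled FPKM in the Tfam KO libraries and 7.07, 8.76 and 6.92 in the Control libraries and did not pass (log2 difference 0.34, SE 0.13, limma adjusted p = 0.175).

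Of 10 tested genes of collagen breakdown, 0 higher and 1 lower with size factors and 0 on the deposited scale passed, with a median of 0.04. Mmp15, a membrane-anchored protease, was at 17.8, 15.3 and 11.8 scaled FPKM in the Tfam KO libraries and 33.5, 20.5 and 28.4 in the Control libraries, lower without overlap (log2 difference -0.83, SE 0.19, limma adjusted p = 0.0378, deposited adjusted p = 0.150). Its call was lost too when either Tfam KO replicate 2 or 3, or either Control replicate 1 or 3, was left out, and with no filter on low values (adjusted p up to 0.133). The gelatinase Mmp2 and the collagenase Mmp14 had log2 differences of 0.15 and -0.03. Of 19 tested fibril partners 0 and of 18 basement membrane partners 0 passed in limma with size factors. On the deposited scale 4 fibril partners were called higher, against 6.21% of all genes. These were Lum, Ogn, Aspn and Postn, which bind or arrange fibrils. Their size-factor log2 differences were 0.54, 0.54, 0.50 and 0.36. Medians were 0.16 for fibril partners and -0.03 for basement membrane partners.

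Of 27 tested regulators of matrix genes, 0 higher and 1 lower passed, with a median of 0.03. Tgfb1, a growth factor that raises collagen synthesis, was at 6.54, 6.09 and 4.77 scaled FPKM in the Tfam KO libraries and 12.4, 10.2 and 9.47 in the Control libraries, without overlap (log2 difference -0.78, SE 0.14, limma adjusted p = 0.0124). It did not pass on the deposited scale (adjusted p = 0.162) or after GC correction (log2 difference -0.36, adjusted p = 0.0797). Tgfb2 had a log2 difference of 0.25. Genes that supply proline and glycine, the main residues of collagen, stood apart from the collagens, with 6 higher and 0 lower of 11 tested on either scale and a median of 1.27. That list was written with the rise of several members already known. Aldh18a1 and Pycr1, which make proline, rose by 1.57 and 1.27 on the log2 scale, and Pycr1 stood at 4.68, 4.03 and 3.72 scaled FPKM in Tfam KO libraries, against 1.27, 0.960 and 1.17 in Control libraries. The serine genes Phgdh, Psat1 and Psph rose by 2.36, 1.35 and 1.31, and Shmt2, which makes glycine in mitochondria, by 1.41.

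Markers of the cells that make collagen in the heart were set beside these values, as summed scaled FPKM. For calls among markers here and below, the shares over all genes were 1.96% higher and 2.6% lower with size factors. On the deposited scale they were 6.21% higher and 1.16% lower. Heart muscle genes summed to 5982 to 9159.6 in Tfam KO and 6224 to 7629 in Control libraries, with Nppa, atrial natriuretic peptide, called higher among 8 tested on either scale. Nppa passed in 14 of 15 alternatives (highest limma adjusted p = 0.101). It was a large part of the sum, at 2397, 3112 and 3226 in Tfam KO and 1369, 1196 and 1146 in Control libraries. Myh7 and Actn2 were lower in every Tfam KO library and did not pass (log2 difference -0.65 and -0.30). By limma-voom Myh7 was called lower (adjusted p = 0.0434). The rest overlapped, so the sum does not stand for them, and the median log2 difference of the 8 was -0.14. The 13 genes of fibroblasts and valve mesenchyme summed to 749 to 766 in Tfam KO and 712 to 868 in Control libraries, with 1 called higher with size factors (Ddr2, which is also in the receptor list) and 4 on the deposited scale (Ddr2, Pdgfra, Lum and Postn). Vim was the largest part of this sum, at 428, 429 and 406 in Tfam KO and 554, 476 and 539 in Control libraries. Vim was lower in every Tfam KO library, Lum, Postn and Ddr2 were higher in every one, and the rest overlapped. The sum therefore does not stand for the other genes, and the median log2 difference of the 13 was 0.13. Epicardial genes (8 of 8 tested, 0 called) summed to 40.4 to 49.3 in Tfam KO and 39.0 to 50.6 in Control libraries. Endothelial and endocardial genes summed to 152 to 167 in Tfam KO and 172 to 185 in Control libraries, and Plvap, a gene of fenestrated endothelium, was the 1 of 9 called with size factors, as lower (log2 difference -0.85, SE 0.17, limma adjusted p = 0.0162). On the deposited scale Plvap did not pass (adjusted p = 0.133) and Emcn, an endothelial surface protein, was called higher (log2 difference 0.68, adjusted p = 0.0475). The Plvap call was also lost with no filter on low values and when any 1 library other than Tfam KO replicate 1 or Control replicate 2 was left out (highest adjusted p = 0.0768). Within the endothelial and endocardial list, Plvap was lower in every Tfam KO library, Emcn was higher in every one, and the rest overlapped. The endothelial and endocardial sum, although its groups did not overlap, therefore does not stand for the genes other than Plvap. The median log2 difference of the 9 was -0.14. Smooth muscle and pericyte genes summed to 252 to 296 in Tfam KO and 415 to 462 in Control libraries, without overlap, and 2 of 6 tested, Acta2 and Cnn1, were called lower with size factors and not on the deposited scale (log2 difference -0.76 and -0.99), where Pdgfrb was called higher. The Cnn1 call was lost without Tfam KO replicate 2 or Control replicate 3 and with no filter (highest adjusted p = 0.0588). Embryonic heart muscle also makes Acta2, at 195, 249 and 198 scaled FPKM in the Tfam KO libraries and 376, 360.0 and 350.0 in the Control libraries. The part of these cell types in the collagen values was not tested.

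Markers of skeletal muscle, of lung and foregut and of neural tissue were low. Skeletal muscle genes summed to 0.504 to 0.981 in Tfam KO and 0.457 to 3.74 in Control libraries, with Control replicate 1 the highest and Myf5 at 0 in every library. Lung and foregut genes summed to 0.104 to 0.411 in Tfam KO and 0.204 to 0.875 in Control libraries, with Foxa2, Sftpc and Shh at 0 throughout. Neural genes summed to 2.29 to 3.14 in Tfam KO and 2.59 to 4.70 in Control libraries. Macrophage genes summed to 11.6 to 16.1 in Tfam KO and 15.5 to 17.6 in Control libraries, where of 4 tested Lyz2 was called lower with size factors and Cx3cr1 higher on the deposited scale. The Lyz2 call was lost without Tfam KO replicate 2, Tfam KO replicate 3 or Control replicate 3 (highest adjusted p = 0.115). Red cell genes summed to 3324 to 10148 in Tfam KO and 6225 to 12910.0 in Control libraries, with 0 of 5 called by limma on either scale.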

How the data were processed

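Tools listed in the submitters' processing notes are CASAVA 1.8.2, TopHat2 2.0.7 and HTSeq 0.5.3, along with the genome build mm9. Which annotation, strand setting and FPKM tool were used is not given in the sources used here. The deposited values are log2(FPKM + 1), per the file names and the values themselves, in 1 table per library with symbols and no coordinates.

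Values were turned back to FPKM and divided by median-of-ratios size factors. Library totals were recovered from transcripts of known length, and all 17876 genes above 0 in a library gave whole reads (tolerance 1e-05, known up to a common factor per gene). limma 3.58.1 (R 4.3.3) was fitted to log2(scaled FPKM + 1) of all 6 libraries, with a trend on expression, group as the only term, two-sided tests and Benjamini-Hochberg adjustment over 10795 genes with a mean of at least 1. The fit was also run on simulated reads, and no result given here rests on that run. SDs measure the spread between pools of hearts. The main limma p-values rest on that spread, moderated by the spread of genes of like level. In the fit on the deposited scale the spread was taken wholly from genes of like level. Its p-values therefore do not measure a gene's own spread between pools. GC content came from the GENCODE vM21 transcript closest in length to that behind the FPKM, and promoter sequences from RefSeq on GRCm38.p6.

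The members, classes and gene lists were chosen with earlier results of these data known. Named were members past the threshold on either scale, up to 3 of highest level in each class, and up to 6 genes per list past the threshold; other genes were chosen after their values were seen. Alternatives were the deposited scale, upper-quartile scaling, a pseudocount of 0.1, other filters, no trend, limma-voom on reads, a replicate block, each library left out and a GC correction (loess span 0.4).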

Additional observations from a re-analysis of the deposited data

How the results depend on the processing

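Of the 18 named genes past the threshold, markers included, 0 changed sign under any of the 15 alternatives, and Col13a1, Ddr2 and the 6 proline and glycine genes passed under each that gave them a value (Pycr1 fell under the filter at a mean of 3). Sign changes were limited to collagen genes that had not passed. On the deposited scale the log2 differences of Col1a1, Col4a1, Col4a2, Col18a1, Col6a1, Col4a5, Col15a1, Col4a6, Col9a1 and Col27a1 became 0.15, 0.0070, 0.028, 0.056, 0.23, 0.18, 0.20, 0.11, 0.17 and 0.093. After GC correction those of Col1a1, Col4a2, Col18a1, Col6a1, Col15a1, Col27a1, Col12a1 and Col11a1 became 0.047, 0.015, 0.056, 0.026, 0.034, 0.14, -0.0010 and -0.037. With a pseudocount of 0.1 that of Col9a1 became 0.051. With 1 library left out, the ranges were -0.11 to 0.35 for Col1a2, -0.018 to 0.23 for Col5a2, -0.23 to 0.066 for Col6a1, -0.18 to 0.086 for Col15a1, -0.19 to 0.16 for Col12a1, -0.028 to 0.25 for Col6a3, -0.16 to 0.12 for Col11a1, -0.42 to 0.19 for Col9a1, -0.025 to 0.12 for Col6a6 and -0.30 to 0.033 for Col27a1.

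Lower collagen genes numbered 1 without the filter on low values and 1 to 6 with 1 library left out, and higher ones 0 to 0. Over all genes, 671 were higher and 125 lower on the deposited scale, against 212 and 281 with size factors (84.3% and 43.0% of calls higher), 386 were higher after GC correction, 144 lower without the filter and 464 lower by limma-voom. With 1 library left out the counts were 132 to 213 higher and 126 to 356 lower. The causes were not tested. The unfiltered fit adjusts over 17876 genes, and its spread was also moderated over that larger set.

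Whether replicate numbers pair the libraries was not settled. The correlation of deviations between same-numbered Tfam KO and Control libraries was 0.36, 0.07 and 0.16, and between -0.39 and 0.25 for the other pairings. Tfam KO replicates 1 and 2 correlated best with the Control library of the same number, and Tfam KO replicate 3 with Control replicate 2. With the replicate block the collagen counts were 0 higher and 4 lower, and over all genes 275 higher and 420 lower. Genes of few reads, such as the 17 untested collagens, are limited by depth.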
